A study of Mus musculus with 20 samples.

Results

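The extracellular matrix gene set consists of the rows of the authors' expression table whose gene symbol starts as those of collagen, laminin or integrin chains, fibulins, fibrillins, fibronectin, thrombospondins, Timp inhibitors, lysyl oxidases, Adamts proteases or collagen-modifying hydroxylases do. The pattern found 77 of the table's 11767 rows, which carry 68 of its 10334 symbols. Each row is 1 transcript model, and 8 symbols have several. The rows fall into 13 roles, among them 7 fibrillar collagens, 2 basement membrane collagens, 15 rows of other collagens, 9 of laminin chains, 6 of integrin alpha and 3 of integrin beta chains, 13 of matrix glycoproteins, 3 of hydroxylases, 3 of oxidases, 10 of Adamts proteins and 2 Timp inhibitors. The name also caught Col4a3bp, a ceramide transfer protein and no collagen, and the integrin-binding proteins Itgb1bp1, Itgb1bp2 and Itgb3bp. Sparc, Col4a1, Postn, Lum, Dcn and the P4ha genes have no row under these names and were not analysed here.

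Cells build the matrix around them from secreted chains that assemble outside the cell. Fibrillar collagens form the cables of connective tissue, while laminin trimers of an alpha, a beta and a gamma chain form, with type IV collagen, the sheet of the basement membrane that underlies epithelia and surrounds the early embryo. Integrins are the cell-surface receptors for both, each a pair of an alpha and a beta chain. Hydroxylases and lysyl oxidases modify and cross-link the collagens, Adamts proteases cut matrix proteins and Timp proteins inhibit matrix proteases.

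RNA came from 5 kinds of mouse cells with 2 libraries each, on the strain background 129SvJae x C57BL/6 throughout. ES cells were the male line V6.5, grown in pluripotency medium with LIF or in 2i, a serum-free medium with LIF, the GSK3 inhibitor CHIR99021 and the MEK inhibitor PD0325901. Neural progenitor cells (NPC) were primary cultures from whole brains of P1 Sox2-eGFP mice, grown as neurospheres with EGF and FGF and then plated on poly-D-lysine and laminin. Induced pluripotent stem (iPS) cells were derived from such NPC with the Sox2-eGFP allele and grown with LIF and fetal bovine serum, or in 2i. For ES cells outside 2i the labels name LIF but no serum, so the medium of the ES and iPS groups called LIF medium here may differ. Whether the iPS libraries come from 1 clone or several is not given in the sources used here. All ES and iPS cultures had been expanded on growth-arrested embryonic fibroblast feeders, and were then moved to gelatin to remove them.

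Assigned reads ranged from 1.15M in NPC replicate 1 to 17.3M in ES replicate 1, and matrix rows took 0.204% to 0.310% of them. Reads in no model reached 86.6% in NPC replicate 1 and 81.5% in ES replicate 2. The labels do not say that the 2 replicates of a group came from separate cultures, and a p-value then covers only the spread between libraries, which may be technical. The markers set NPC apart, as labelled. The summed level of 11 pluripotency genes was 15.9 and 18.0 CPM (read counts per library size, scaled by TMM) in NPC against 5506 to 8227 elsewhere. That of 7 neural progenitor genes was 7657 and 9189 in NPC against 65.6 to 321 elsewhere. The sums do not show that ES and iPS cells were alike. By the test below, 2 of the 11 were higher and 9 lower in iPS than in ES cells in LIF medium (25.9% and 26.9% of all models). In 2i 8 were higher and 2 lower in iPS cells (21.1% and 21.5%). Of the 77 rows, 68 passed the low-count filter and were tested, and counts below are of these 68. A row can pass through 1 high group alone, and 9 rows did not pass (Col4a3bp, Col23a1, Lox, Itga6, Itgb1bp1, Itgb3bp and 1 model each of Adamts9, Itgav and Fbn1). In bulk RNA, fewer cells of a type and less RNA per cell cannot be told apart.

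Matrix genes moved in both directions between NPC and ES cells, were more often higher than lower in iPS cells, and were more often lower than higher in 2i medium. Changes are log2 differences from edgeR's quasi-likelihood test on all 11031 tested models, called at a Benjamini-Hochberg adjusted p under 0.05. The test gives no standard error. The value after ± is an approximate one, the size of the change divided by the square root of the F statistic. It is least reliable for members near 0 counts. In NPC against ES cells, 24 of the 68 tested members were higher and 26 lower, beside 27.3% and 33.7% of all models. In iPS cells against NPC, 37 were higher and 17 lower (29.3% and 22% of all models). Against ES cells, iPS cells were higher in 30 members and lower in 12, where 25.9% and 26.9% of all models were called. The first of these counts is 44.1% of the members. Cells in 2i had 8 members higher and 28 lower than in LIF medium in the ES line (11.3% and 13.2% of all models), and 9 higher and 28 lower in iPS cells (21.1% and 21.5%). The 28 lower members are 41.2% of those tested in each line. Within 2i medium, iPS cells were higher than ES cells in 21 members and lower in 5 (13.7% and 11.6% of all models). Single libraries move 3 of these counts by more than 1.5 times: without NPC replicate 2 the 17 lower members in iPS cells against NPC become 11, without ES replicate 1 the 8 higher members in 2i in ES cells become 2, and without replicate 1 of ES cells in 2i the 28 lower members there become 15.

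**Figure D1:**
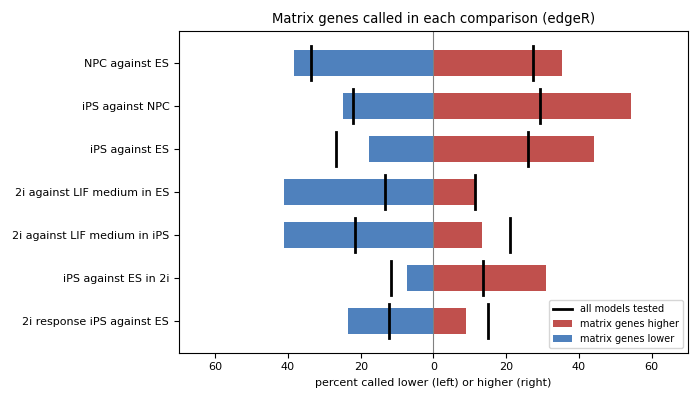
Share of the 68 tested matrix gene models called higher (red, to the right) or lower (blue, to the left) in each of 7 comparisons, in percent. Black marks give the same share over all 11031 tested models. The lower share reaches 41.2% in both 2i comparisons and the higher share 54.4% in iPS cells against NPC.

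The median log2 change of the members was -0.45 in NPC against ES cells, beside -0.20 over all models, and 1.06 in iPS cells against NPC, beside 0.15. It was 0.57 in iPS against ES cells (-0.03 over all models) and 0.42 for the same pair in 2i (-0.01). The 2i medium gave medians of -0.39 in ES cells (0.00 over all models) and -0.70 in iPS cells (0.03). Comparisons that share a group share its libraries, so these values are not independent of each other. By group mean, iPS cells held the highest level of 29 members, 42.6% of those tested against 21.7% of all models, NPC of 18 and ES cells of 11. NPC held the lowest level of 30 members, 44.1% against 40.5% of all models, and ES cells in 2i of 20, 29.4% against 17.0%. Both NPC libraries lay below all other 8 in 25 members (27.4% of all models) and above all other 8 in 15 (20.9%).

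**Figure D2:**
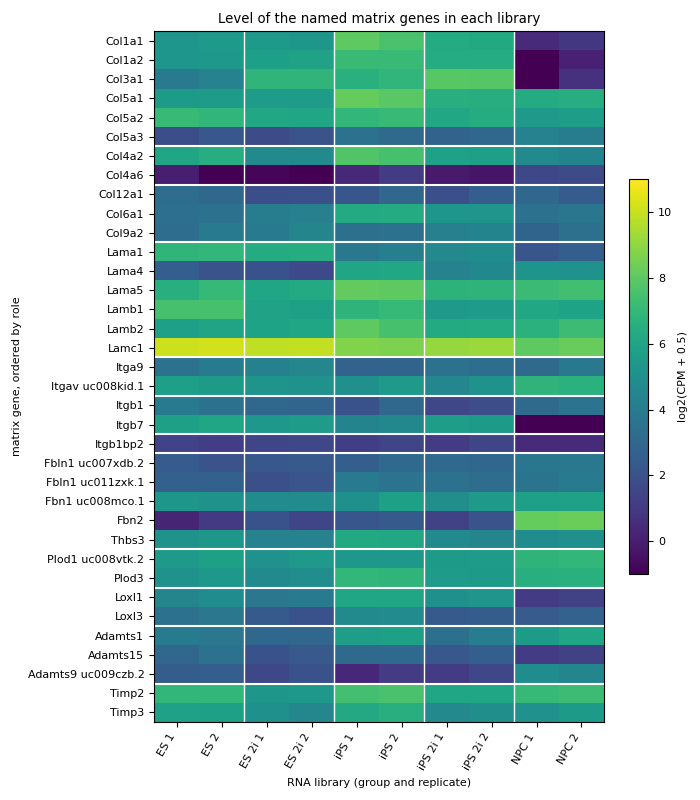
Level of 36 matrix gene models named by role, size of change or difference in 2i response (rows, grouped by role between white lines) in the 10 libraries (columns). Colour gives log2(CPM + 0.5) and compares libraries within a row, since levels are not corrected for gene length. Col1a1, Col1a2, Col3a1 and Itgb7 are near the bottom of the scale in both NPC libraries, where Fbn2 is at its highest.

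Fibrillar collagens split by cell type. Of the 7 members, 4 were lower in NPC than in ES cells and 3 higher (33.7% and 27.3% of all models). In iPS against ES cells 5 were higher and 1 lower (25.9% and 26.9% of all models). The chains of type I collagen, the main collagen of bone and skin, and of its partner type III were nearly missing from NPC, while type V, which seeds fibrils, was not. Because the members divide in this way, the promoter sequence before the start of Col1a2, Col3a1 and Col5a1 is shown, 5′ to 3′ on the plus strand, from RefSeq (GRCm38.p6, not the mm9 build of the deposited positions), at chr6:4505368-4505617, chr1:45311288-45311537 and chr2:27886175-27886424. Capitals mark the CCAAT box, the TATAAA element and the GC box GGGCGG, each searched on both strands, and no 2 matches overlap here.

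Col1a2: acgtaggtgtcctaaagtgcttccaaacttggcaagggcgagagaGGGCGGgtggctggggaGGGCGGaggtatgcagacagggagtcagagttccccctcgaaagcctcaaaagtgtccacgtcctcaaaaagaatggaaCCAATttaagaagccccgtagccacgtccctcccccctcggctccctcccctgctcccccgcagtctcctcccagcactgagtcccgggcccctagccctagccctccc
Col3a1: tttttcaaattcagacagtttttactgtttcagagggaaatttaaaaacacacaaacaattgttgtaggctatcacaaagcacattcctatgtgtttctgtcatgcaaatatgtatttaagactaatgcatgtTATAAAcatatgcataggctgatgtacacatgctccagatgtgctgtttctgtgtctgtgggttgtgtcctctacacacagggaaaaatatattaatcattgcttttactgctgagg
Col5a1: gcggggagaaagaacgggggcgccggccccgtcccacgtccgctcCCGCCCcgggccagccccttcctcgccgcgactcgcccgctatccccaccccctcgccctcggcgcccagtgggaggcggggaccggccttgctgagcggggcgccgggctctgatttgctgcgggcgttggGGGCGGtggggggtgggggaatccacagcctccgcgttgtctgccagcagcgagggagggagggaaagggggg

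The Col1a2 window holds 2 copies of GGGCGG and 1 of CCAAT, and 62% of its bases are G or C. Col3a1 has a TATAAA starting 117 bases before the start and a GC share of 35.2%, while Col5a1 has a copy of each strand of GGGCGG and a GC share of 76.4%. Windows were found for 45 of the 68 symbols, 49 windows in all. GGGCGG on either strand was in 63.3% of these, in 60.8% of the 7000 windows of tested genes and in 32.7% of all 32851 windows. The shares for CCAAT were 30.6%, 36.1% and 33.8%, and for TATAAA 8.16%, 6.14% and 12.4%. Such matches describe letters and not factor binding.

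Col1a1 (chr11:94797583-94813170 in mm9, as deposited), the alpha 1 chain of type I collagen, stood at 37.2 and 43.5 CPM in ES cells, 44.6 and 39.9 in ES cells in 2i, 0.837 and 1.45 in NPC, 259.8 and 188 in iPS cells and 82.6 and 78.2 in iPS cells in 2i, replicate 1 before replicate 2 here and below. Both NPC libraries lay under every other library and both iPS libraries above. The change was -4.71 ± 0.35, edgeR adjusted p = 3.80e-13 in NPC against ES cells and 7.20 ± 0.29, edgeR adjusted p = 2.30e-19 in iPS cells against NPC. Between 2i and LIF medium it was -1.48 ± 0.15, edgeR adjusted p = 1.28e-09 in iPS cells, and 0.09 ± 0.15, edgeR adjusted p = 0.734 in ES cells, where the libraries of both media overlapped.

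Col1a2 (chr6:4455696-4491543), the other chain of the type I trimer, stood at 39.4 and 41.3 CPM in ES cells, 54.4 and 58.9 in ES cells in 2i, 0 and 0.579 in NPC, 139 and 141 in iPS cells and 86.3 and 86.8 in iPS cells in 2i. The NPC values rest on 2 counts over both libraries, so the ratio of ES cells to NPC was 92.3 with a 95% counting interval from 25.5 to 764, and the fitted change was -5.92 ± 0.37, edgeR adjusted p = 7.58e-15. As for Col1a1, the iPS libraries were the highest, and the change against ES cells was 1.79 ± 0.14, edgeR adjusted p = 5.75e-12. Its response to 2i had opposite signs in the lines, 0.49 ± 0.14 in ES cells and -0.69 ± 0.14 in iPS cells. The ES call is lost without ES replicate 1 (0.46, edgeR adjusted p = 0.108) and without the second 2i library (0.44, edgeR adjusted p = 0.0771).

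Col3a1 (chr1:45368382-45406551), the type III chain, stood at 15.6 and 19.2 CPM in ES cells, 116 and 116 in ES cells in 2i, 0 and 1.16 in NPC, 96.5 and 120.3 in iPS cells and 232 and 226 in iPS cells in 2i. Here the 2i libraries were the highest in both lines and did not overlap with those in LIF medium. In iPS cells the change in 2i was 1.07 ± 0.14, edgeR adjusted p = 2.32e-07. It was the only fibrillar collagen called higher in 2i in iPS cells. In NPC it was nearly missing, with 0 and 4 counts.

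Type V chains followed other patterns. Col5a1 (chr2:27741944-27895030) stood at 45.9 and 47.4 CPM in ES cells, 48.1 and 49.9 in ES cells in 2i, 82.9 and 88.4 in NPC, 285 and 243 in iPS cells and 93.5 and 89.8 in iPS cells in 2i. It was higher in NPC than in ES cells (0.89 ± 0.15, edgeR adjusted p = 4.79e-06) and higher again in iPS cells (2.50 ± 0.14, edgeR adjusted p = 1.41e-15 against ES cells), with no overlap between these groups. In 2i it fell in iPS cells (-1.52 ± 0.13) to the level of NPC, and was 0.08 ± 0.13 in ES cells, where it was not called. Col5a2 (chr1:45431175-45560127), which lies 24.6 kb from Col3a1 in the deposited positions, stood at 135 and 121 CPM in ES cells, 70.4 and 68.6 in ES cells in 2i, 43.5 and 50.7 in NPC, 122 and 139.6 in iPS cells and 71.7 and 84.5 in iPS cells in 2i. Unlike its neighbour it was lower in 2i in both lines (-0.88 ± 0.13, edgeR adjusted p = 5.29e-06 in ES cells, -0.74 ± 0.14, edgeR adjusted p = 4.82e-05 in iPS cells). Col5a3 was higher in NPC than in ES cells (2.25 ± 0.31, edgeR adjusted p = 1.94e-07), at 19.3 and 16.2 CPM against 3.14 and 4.21. Col11a1, a cartilage fibril chain that the naming rule did not select and that was chosen after its values were seen, was also higher in NPC, at 10.9 and 12.2 CPM against 1.01 and 1.32 in ES cells (3.17 ± 0.45, edgeR adjusted p = 4.26e-07).

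**Figure D3:**
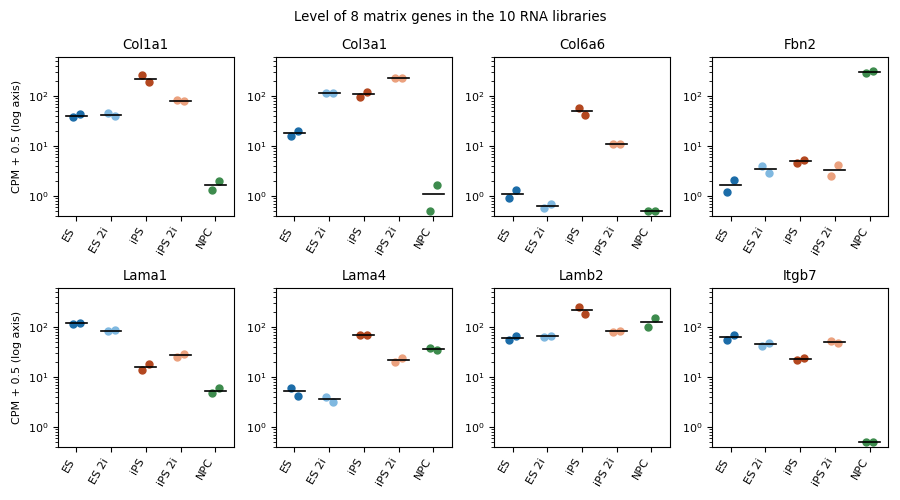
Level of 8 matrix genes as CPM + 0.5 on a log axis, with 1 point per library and a black line at the mean of the 2 libraries of a group. Fbn2 is high in NPC alone, Itgb7 is at 0 there, and Lama1 and Lama4 take opposite orders between ES and iPS cells.

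Markers of fibroblasts, the cell type of the feeder layer, moved with the type I collagens between NPC, ES and iPS cells in LIF medium and in iPS cells in 2i, but not in ES cells in 2i, and their part in these results was not tested. Of the 24 listed genes, 14 were in the table. Their summed level was 1399.6 and 1552 CPM in ES cells, 357 and 359 in ES cells in 2i, 115 and 163 in NPC, 2558 and 2829 in iPS cells and 709 and 717 in iPS cells in 2i. In ES and iPS cells most of that sum is Acta2 and Tagln, smooth muscle actin and transgelin, which cultured cells of several kinds express, while in NPC the largest part is Thy1, which neurons also express. Of the 14, 8 were higher and 1 lower in iPS than in ES cells (25.9% and 26.9% of all models). The largest log2 changes there were 3.59 for Tbx15, 3.10 for Cd248 and 2.90 for Tbx18. Between the lines within 2i medium, 10 were higher and 0 lower in iPS cells (13.7% and 11.6% of all models). In 2i 13 were lower in ES cells (13.2% of all models) and 10 lower, 1 higher, in iPS cells (21.5% and 21.1%). None of the 14 was at 0 in any ES or iPS library. Twist2, a mesenchymal transcription factor, stood at 4.94 and 3.42 CPM in ES cells, 0.501 and 0.195 in ES cells in 2i, 0 and 0 in NPC, 4.74 and 7.15 in iPS cells and 2.25 and 1.73 in iPS cells in 2i. Unlike Tbx15, Cd248 and Tbx18, it was not called between iPS and ES cells in LIF medium (0.42, edgeR adjusted p = 0.336). The summed markers were lower in 2i in each line, and Col3a1 was higher in both. In ES cells in 2i Col1a1 was not called. Col1a2 was called higher there, a call that is lost without ES replicate 1 or the second 2i library.

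Among the basement membrane collagens, Col4a2 (chr8:11312828-11449287), a chain of the ubiquitous type IV network, stood at 66.7 and 88.7 CPM in ES cells, 26.1 and 25.4 in ES cells in 2i, 25.1 and 20.9 in NPC, 212 and 179 in iPS cells and 57.0 and 54.1 in iPS cells in 2i. NPC and both 2i groups lay below both LIF groups, and iPS cells were the highest. Changes were -1.77 ± 0.19, edgeR adjusted p = 1.86e-09 in NPC against ES cells and 1.35 ± 0.15, edgeR adjusted p = 3.15e-09 in iPS against ES cells. In 2i it fell in both lines (-1.56 ± 0.15 in ES cells, -1.82 ± 0.15 in iPS cells), and the difference of the responses was not called (-0.25 ± 0.21). Col4a6 was near the detection limit in every group, at 2.51 and 2.90 CPM in NPC, from 3 and 10 counts, and 0 to 1.70 elsewhere. Its call as lower in 2i in ES cells is lost without ES replicate 1 (0.16, edgeR adjusted p = 0.848) or without the first (-1.30, edgeR adjusted p = 0.0868) or second 2i library (-0.98, edgeR adjusted p = 0.244). Its call as higher in NPC (2.26 ± 0.66) is lost without NPC replicate 2 (2.1, edgeR adjusted p = 0.157).

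Type VI collagen, a beaded microfibril around cells, had 7 rows, and Col6a1, Col6a2 and Col6a6 were higher in iPS than in ES cells. Col6a1 (chr10:76171536-76188789) stood at 9.94 and 10.5 CPM in ES cells, 16.2 and 18.2 in ES cells in 2i, 10.9 and 12.7 in NPC, 80.2 and 83.2 in iPS cells and 39.2 and 37.4 in iPS cells in 2i. NPC and ES cells were close and not called as different (0.26 ± 0.24), and all 4 iPS libraries lay above the 6 others. The change was 2.98 ± 0.18, edgeR adjusted p = 7.33e-15 in iPS against ES cells in LIF medium and 1.14 ± 0.16, edgeR adjusted p = 2.58e-06 in 2i. Col6a2, 85.4 kb away and described after its values were seen, stood at 0.617 and 0.527 CPM in ES cells, 1.07 and 1.56 in ES cells in 2i, 0 and 1.74 in NPC, 4.33 and 6.30 in iPS cells and 2.46 and 1.83 in iPS cells in 2i, with a change of 2.74 ± 0.45, edgeR adjusted p = 6.38e-06 in iPS against ES cells. Both chains were lower in 2i in iPS cells, and the call of Col6a2 there is lost without replicate 2 of the LIF medium (-0.97, edgeR adjusted p = 0.187) or of 2i (-1.0, edgeR adjusted p = 0.186).

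Col6a6, a chain described after its values were seen, gave the largest rise among members in iPS against ES cells. It stood at 0.393 and 0.790 CPM in ES cells, 0.0627 and 0.195 in ES cells in 2i, 0 and 0 in NPC, 56.9 and 40.9 in iPS cells and 10.7 and 10.2 in iPS cells in 2i. All 4 iPS libraries lay above the other 6, which were under 1 CPM. The change against ES cells was 6.10 ± 0.32, edgeR adjusted p = 1.33e-15, and 4.86 ± 0.34, edgeR adjusted p = 4.14e-12 in 2i, and iPS cells were at least 28.9-fold higher than NPC, taking 3 counts per NPC library as the floor. The 2 tested models of Col6a3, also described after their values were seen, were at 0 and 0.290 and 0 and 0 CPM in NPC, against 5.79 to 8.16 in ES cells, and were not called between iPS and ES cells (log2 changes 0.41 and 0.23). Reads shared by models of a symbol were not assigned, so their levels are uncertain.

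The remaining collagens were of modest level. Col9a3, a cartilage and nervous system chain chosen after its values were seen, was higher in NPC at 30.1 and 35.1 CPM against 1.91 and 0.790 in ES cells (4.16 ± 0.36, edgeR adjusted p = 1.72e-11). Its partner Col9a2 was at 6.70 and 10.4 CPM in NPC and 9.43 and 14.5 in ES cells, with no call. In 2i Col9a2 was higher in iPS cells (0.93 ± 0.24, edgeR adjusted p = 0.00217). Its call in ES cells is lost without ES replicate 1 (0.34, edgeR adjusted p = 0.488) or the second 2i library (0.46, edgeR adjusted p = 0.223). Col12a1, a fibril-associated chain, fell in ES cells in 2i, from 9.15 and 7.90 to 3.20 and 3.31 CPM (-1.36 ± 0.28, edgeR adjusted p = 4.39e-04). Against NPC, iPS cells were higher in 9 of the 14 tested rows of other collagens, those of type VI included, and lower in 1 (29.3% and 22% of all models).

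Laminin chains differed between the groups in opposite directions. Of the 9 rows, which name 8 chains or forms, 3 were higher and 5 lower in NPC than in ES cells (27.3% and 33.7% of all models). All 9 rows were higher in iPS cells against NPC (29.3% of all models). Against ES cells, iPS cells were higher in 4 and lower in 4 (25.9% and 26.9% of all models). Lama1 (chr17:68046604-68171985), the alpha chain of the early embryo's laminin, stood at 115 and 122 CPM in ES cells, 82.1 and 86.5 in ES cells in 2i, 4.19 and 5.50 in NPC, 13.6 and 17.4 in iPS cells and 24.8 and 28.5 in iPS cells in 2i. Every ES library lay above every iPS library, and these above NPC. The change was -4.46 ± 0.23, edgeR adjusted p = 8.96e-17 in NPC and -2.91 ± 0.17, edgeR adjusted p = 3.89e-15 in iPS cells, both against ES cells. It remained lower in iPS cells in 2i (-1.64 ± 0.15, edgeR adjusted p = 1.14e-09).

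Lama4 (chr10:38685320-38829994), the alpha chain of vascular and mesenchymal laminins, differed in the opposite direction between ES and iPS cells. It stood at 5.56 and 3.69 CPM in ES cells, 3.51 and 2.60 in ES cells in 2i, 36.8 and 34.5 in NPC, 67.8 and 70.3 in iPS cells and 19.5 and 24.0 in iPS cells in 2i. The change was 2.75 ± 0.24, edgeR adjusted p = 1.19e-11 in NPC and 3.71 ± 0.21, edgeR adjusted p = 3.55e-15 in iPS cells, both against ES cells, with no overlap of libraries. It was lower in 2i in iPS cells (-1.64 ± 0.18, edgeR adjusted p = 1.05e-08) and stayed above ES cells there (2.76 ± 0.21, edgeR adjusted p = 2.24e-11). Lama3, an epithelial alpha chain described after its values were seen, stood at 0.393 and 0 CPM in ES cells, 0.689 and 1.04 in ES cells in 2i, 0 and 0.579 in NPC, 14.0 and 11.7 in iPS cells and 2.66 and 3.55 in iPS cells in 2i, with 4.57 ± 0.43, edgeR adjusted p = 1.72e-10 in iPS against ES cells. Lama5 (chr2:179911077-179960564), the widely expressed alpha chain, stood at 94.0 and 133 CPM in ES cells, 66.3 and 81.5 in ES cells in 2i, 142 and 167 in NPC, 279.8 and 261 in iPS cells and 109 and 111 in iPS cells in 2i, highest in iPS cells (1.27 ± 0.15, edgeR adjusted p = 1.37e-08 against ES cells). Its smaller rise in NPC (0.48 ± 0.15) is lost without ES replicate 1 (0.18, edgeR adjusted p = 0.408) or NPC replicate 2 (0.27, edgeR adjusted p = 0.29).

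The beta chains also diverged. Lamb1 (chr12:31950158-32014504), the embryonic beta chain, stood at 179.6 and 179 CPM in ES cells, 58.8 and 55.6 in ES cells in 2i, 71.2 and 62.6 in NPC, 113 and 132 in iPS cells and 42.8 and 48.7 in iPS cells in 2i. It was lower in NPC than in ES cells (-1.44 ± 0.15, edgeR adjusted p = 7.01e-10), and lower in 2i in both lines, at -1.64 ± 0.13, edgeR adjusted p = 2.98e-11 in ES cells and -1.40 ± 0.14, edgeR adjusted p = 1.02e-09 in iPS cells. Lamb2 (chr9:108382192-108392861), the later beta chain of nerve, muscle and kidney membranes, stood at 54.3 and 64.5 CPM in ES cells, 62.8 and 66.0 in ES cells in 2i, 100.5 and 149 in NPC, 256 and 183 in iPS cells and 80.2 and 83.1 in iPS cells in 2i. It was higher in NPC than in ES cells (1.13 ± 0.17, edgeR adjusted p = 1.07e-06) and highest in iPS cells (1.90 ± 0.16, edgeR adjusted p = 3.14e-11). In 2i it fell to 80.2 and 83.1 CPM in iPS cells, while ES libraries in both media overlapped.

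The gamma chain gene Lamc1 (chr1:155066051-155179916), which serves in most laminins, stood at 1093 and 1159.8 CPM in ES cells, 909 and 940.3 in ES cells in 2i, 259.5 and 299.6 in NPC, 421 and 397 in iPS cells and 544 and 592 in iPS cells in 2i. ES libraries in both media were the highest and NPC the lowest, and the 2i libraries of iPS cells lay above those in LIF medium. The change was -2.0 ± 0.13, edgeR adjusted p = 3.61e-14 in NPC against ES cells and -1.46 ± 0.13, edgeR adjusted p = 5.00e-11 in iPS against ES cells.

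Among integrin chains, Itgb7 (chr15:102046425-102062366), a beta chain best known from lymphocytes, stood at 55.9 and 67.4 CPM in ES cells, 41.9 and 47.4 in ES cells in 2i, 0 and 0 in NPC, 21.0 and 23.8 in iPS cells and 51.2 and 46.6 in iPS cells in 2i. With 0 counts in both NPC libraries, ES cells were at least 36.5-fold and iPS cells at least 13.3-fold higher than the floor of 3 counts per library. It was lower in iPS than in ES cells (-1.43 ± 0.17, edgeR adjusted p = 3.07e-08) and rose in 2i in iPS cells (1.11 ± 0.17, edgeR adjusted p = 4.42e-06), where it reached the range of the ES line. The alpha chain gene Itgav (chr2:83564553-83647073 for the model uc008kid.1), which pairs with several beta chains as a receptor for fibronectin and vitronectin, was higher in NPC at 111 and 103 CPM against 54.0 and 45.8 in ES cells and 31.5 and 43.9 in iPS cells (1.06 ± 0.18, edgeR adjusted p = 5.45e-06 against ES cells).

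Itga4, a receptor chain for fibronectin and cell adhesion ligands, was chosen after its values were seen. It stood at 22.6 and 18.8 CPM in NPC and from 0.205 to 2.21 in the other 8 libraries (5.28 ± 0.48, edgeR adjusted p = 4.54e-11 against ES cells). Itga11, a collagen receptor chain also chosen in this way, stood at 0.505 and 2.11 CPM in ES cells, 1.38 and 2.21 in ES cells in 2i, 0 and 0 in NPC, 10.1 and 8.51 in iPS cells and 1.43 and 1.73 in iPS cells in 2i. Only the iPS libraries in LIF medium were above 3 CPM. The change was 3.08 ± 0.44, edgeR adjusted p = 6.12e-07 in iPS against ES cells and -2.36 ± 0.41, edgeR adjusted p = 2.69e-05 in 2i in iPS cells. Itga9 stood at 11.1 and 14.7 CPM in ES cells, 18.5 and 23.0 in ES cells in 2i, 8.37 and 13.6 in NPC, 6.60 and 6.47 in iPS cells and 10.9 and 9.74 in iPS cells in 2i, and was lower in iPS than in ES cells in LIF medium (-0.90 ± 0.25, edgeR adjusted p = 0.00356) and in 2i (-1.01 ± 0.22, edgeR adjusted p = 8.13e-04). Itgb1, the beta chain common to most matrix receptors, stood at 14.4 and 11.1 CPM in ES cells, 7.77 and 7.08 in ES cells in 2i, 8.37 and 11.3 in NPC, 3.51 and 7.49 in iPS cells and 2.46 and 3.04 in iPS cells in 2i. It was lower in iPS than in ES cells, and the LIF medium call (-1.19 ± 0.29) is lost without iPS replicate 1 (-0.79, edgeR adjusted p = 0.0524). Itgb1bp2, which binds the beta chain's tail and was caught by its name, was called in no comparison.

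Among the glycoproteins, the fibrillins gave the largest difference of the set. Fibrillins form the microfibrils of elastic tissue, and Fbn2 is the form of fetal tissue. Fbn2 stood at 0.674 and 1.58 CPM in ES cells, 3.51 and 2.34 in ES cells in 2i, 289 and 316 in NPC, 4.12 and 4.77 in iPS cells and 2.05 and 3.65 in iPS cells in 2i. Both NPC libraries lay far above the other 8, with a change of 8.12 ± 0.26, edgeR adjusted p = 4.31e-22 against ES cells and -6.01 ± 0.22, edgeR adjusted p = 2.26e-20 in iPS cells against NPC. It was higher in iPS than in ES cells in LIF medium (2.11 ± 0.35, edgeR adjusted p = 8.57e-06). Its rise in 2i in ES cells (1.54 ± 0.32) is lost without ES replicate 1 (0.79, edgeR adjusted p = 0.341). Fbn1 (model uc008mco.1), the adult form, stood at 39.7 and 34.8 CPM in ES cells, 27.1 and 27.4 in ES cells in 2i, 54.4 and 57.1 in NPC, 31.5 and 55.5 in iPS cells and 29.9 and 45.0 in iPS cells in 2i, and its call as higher in NPC (0.57 ± 0.21) is lost without NPC replicate 2 (0.43, edgeR adjusted p = 0.296) among other libraries.

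Fibronectin and thrombospondin genes were described in part after their values were seen. Fn1, the fibronectin gene, had 3 models, each between 3.40 and 10.5 CPM in ES and iPS cells and between 0 and 2.03 in NPC. All 3 were lower in NPC than in ES cells, with log2 changes of -3.51, -3.32 and -1.88, and no model was called in 2i in either line. Reads that overlap several of them were not assigned, so these levels are not the gene's whole level. Thbs2, a secreted regulator of matrix assembly, stood at 32.8 and 34.2 CPM in ES cells, 19.1 and 16.6 in ES cells in 2i, 2.51 and 3.77 in NPC, 41.7 and 46.0 in iPS cells and 24.0 and 25.8 in iPS cells in 2i. It was lower in NPC (-3.20 ± 0.29, edgeR adjusted p = 3.51e-11) and lower in 2i in both lines (-0.89 ± 0.17, edgeR adjusted p = 1.13e-04 in ES cells, -0.81 ± 0.17, edgeR adjusted p = 2.89e-04 in iPS cells). Thbs3 (chr3:89019108-89030759) stood at 35.4 and 40.8 CPM in ES cells, 19.3 and 19.7 in ES cells in 2i, 27.6 and 31.9 in NPC, 77.9 and 71.8 in iPS cells and 26.0 and 21.8 in iPS cells in 2i, was higher in iPS than in ES cells (0.99 ± 0.16, edgeR adjusted p = 3.67e-06) and fell in 2i (-0.94 ± 0.16 in ES cells, -1.65 ± 0.16 in iPS cells). The fibulin Fbln1, a ligand in basement membranes and elastic fibres, was higher in NPC than in ES cells in both of its models, at 12.6 and 13.6 CPM against 5.05 and 3.69 for the model uc007xdb.2 (1.47 ± 0.31, edgeR adjusted p = 1.15e-04). For the model uc011zxk.1 the call (1.22 ± 0.29) is lost without NPC replicate 2 (0.85, edgeR adjusted p = 0.142).

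The enzymes that modify collagen were highest in different cells. The lysyl hydroxylase gene Plod1 (model uc008vtk.2) stood at 44.6 and 55.3 CPM in ES cells, 33.0 and 42.8 in ES cells in 2i, 111 and 123 in NPC, 41.2 and 41.5 in iPS cells and 45.3 and 46.9 in iPS cells in 2i, so for this model NPC lay above all other libraries (1.25 ± 0.16, edgeR adjusted p = 6.33e-08 against ES cells). The other tested model of Plod1 did not share this rise. Its log2 change was -0.90 in NPC against ES cells, not called, and 0.01 in iPS cells against NPC. In 2i in iPS cells the 2 models changed by 0.16 and 1.44, so the level of the gene as a whole is uncertain. Plod3 (chr5:137462888-137472516), a lysyl hydroxylase that also adds sugars to collagen, stood at 35.9 and 42.1 CPM in ES cells, 25.6 and 29.1 in ES cells in 2i, 91.3 and 98.5 in NPC, 122 and 115 in iPS cells and 49.0 and 46.3 in iPS cells in 2i. It was higher than in ES cells in NPC (1.31 ± 0.16, edgeR adjusted p = 1.27e-08) and in iPS cells (1.62 ± 0.15, edgeR adjusted p = 8.44e-11), and lower in 2i in iPS cells (-1.31 ± 0.14, edgeR adjusted p = 7.35e-09).

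Both tested cross-linking oxidases were lower in NPC than in ES cells, higher in iPS than in ES cells, and lower in 2i in both lines. Loxl1 (chr9:58135529-58161019), which acts on elastin, stood at 21.2 and 27.9 CPM in ES cells, 12.9 and 14.9 in ES cells in 2i, 1.67 and 2.03 in NPC, 66.4 and 65 in iPS cells and 32.2 and 37.9 in iPS cells in 2i, with -3.47 ± 0.34, edgeR adjusted p = 2.90e-10 in NPC and 1.45 ± 0.17, edgeR adjusted p = 2.47e-08 in iPS cells against ES cells. Its 2i libraries did not overlap with those in LIF medium in either line (-0.77 ± 0.18, edgeR adjusted p = 0.00132 in ES cells, -0.89 ± 0.17, edgeR adjusted p = 6.27e-05 in iPS cells). Loxl3 (chr6:82984217-83002558) stood at 10.9 and 13.2 CPM in ES cells, 4.76 and 3.57 in ES cells in 2i, 5.02 and 6.37 in NPC, 26.0 and 26.7 in iPS cells and 4.71 and 5.38 in iPS cells in 2i. Its change in 2i was -1.44 ± 0.23 in ES cells and -2.31 ± 0.24 in iPS cells (edgeR adjusted p = 1.19e-05 and 3.15e-09), to like levels in both lines.

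Of the 9 tested rows of Adamts proteases and like proteins, 7 were higher in NPC than in ES cells and 1 lower (27.3% and 33.7% of all models). Their median log2 change was 3.25, and it includes rows that were high in NPC alone, such as Adamts4 and Adamtsl3. Adamts1 (chr16:85794072-85803360), which cleaves the proteoglycans aggrecan and versican, stood at 15.5 and 13.2 CPM in ES cells, 7.89 and 7.21 in ES cells in 2i, 46.0 and 68.4 in NPC, 50.9 and 56.0 in iPS cells and 10.2 and 15.8 in iPS cells in 2i. NPC and iPS cells in LIF medium overlapped, and both lay above ES cells (2.0 ± 0.21, edgeR adjusted p = 1.29e-09 in NPC, 1.85 ± 0.20, edgeR adjusted p = 3.50e-09 in iPS cells). In 2i it fell in iPS cells (-1.97 ± 0.20, edgeR adjusted p = 2.39e-09). Adamts9 (model uc009czb.2) was higher in NPC (2.15 ± 0.30, edgeR adjusted p = 3.31e-07), at 28.5 and 22.3 CPM against 5.28 and 5.53 in ES and 0.825 and 1.70 in iPS cells. Adamts15, the member that was lower in NPC, was at 1.67 and 2.03 CPM there and 7.35 and 11.1 in ES cells (-2.04 ± 0.44, edgeR adjusted p = 1.66e-04).

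Adamts4, an aggrecan- and brevican-cleaving protease, and the secreted protein Adamtsl3, which has no protease domain, were chosen after their values were seen. Adamts4 stood at 31.0 and 26.9 CPM in NPC and between 0.205 and 3.09 elsewhere (4.54 ± 0.42, edgeR adjusted p = 5.53e-11 against ES cells). Adamtsl3 stood at 26.8 and 38.0 CPM in NPC and between 0 and 0.790 elsewhere (5.30 ± 0.41, edgeR adjusted p = 1.62e-12). Both NPC libraries thus lay above all other 8 for each of these genes.

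Both Timp inhibitors were lower in 2i in each line. Timp2 (chr11:118162374-118216725) stood at 123 and 121 CPM in ES cells, 39.7 and 41.9 in ES cells in 2i, 129 and 147 in NPC, 169 and 190.1 in iPS cells and 68.5 and 66.9 in iPS cells in 2i. In 2i it was lower in both lines with no overlap of libraries (-1.58 ± 0.13, edgeR adjusted p = 6.01e-11 in ES cells, -1.41 ± 0.13, edgeR adjusted p = 3.56e-10 in iPS cells), whereas NPC and ES cells were not called as different (0.18 ± 0.14). Timp3 (chr10:85763156-85812250), the inhibitor that binds to the matrix itself, stood at 58.2 and 55.6 CPM in ES cells, 31.7 and 23.1 in ES cells in 2i, 32.7 and 46.1 in NPC, 76.1 and 90.6 in iPS cells and 24.4 and 30.7 in iPS cells in 2i. Its change in 2i was -1.05 ± 0.17, edgeR adjusted p = 1.31e-05 in ES cells and -1.57 ± 0.18, edgeR adjusted p = 1.21e-08 in iPS cells.

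The responses to 2i in ES and iPS cells were then compared as an interaction term, the response in iPS cells minus that in ES cells. These responses share no library. The difference was positive for 6 members and negative for 16 of the 68, beside 15.1% and 12.2% of all models, and 46 were not called. Negative differences, a lower response in iPS cells, had their smallest adjusted p values in collagens, while Itga11 (-3.21 ± 0.62, edgeR adjusted p = 2.01e-04) and Lama3 (-2.93 ± 0.61, edgeR adjusted p = 4.93e-04), both of low level, had the largest differences. For Col6a1 the response was 0.75 ± 0.17 in ES cells and -1.09 ± 0.16 in iPS cells, with a difference of -1.84 ± 0.23, edgeR adjusted p = 5.09e-07. The rise in ES cells, though not the difference, is lost without ES replicate 1 (0.70, edgeR adjusted p = 0.0701). Col3a1 rose in both lines by unequal amounts (2.76 ± 0.16 and 1.07 ± 0.14, difference -1.69 ± 0.21, edgeR adjusted p = 3.46e-07). Col5a1 differed by -1.60 ± 0.19, edgeR adjusted p = 1.14e-07, Col1a1 by -1.56 ± 0.21, edgeR adjusted p = 1.43e-06 and Col1a2 by -1.18 ± 0.19, edgeR adjusted p = 2.61e-05. The beta laminin Lamb2 was not called in ES cells (0.13 ± 0.16) and fell in iPS cells (-1.42 ± 0.16), with a difference of -1.55 ± 0.22, edgeR adjusted p = 3.91e-06.

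The largest positive difference was 1.98, for the Plod1 model other than uc008vtk.2. This model was not called between iPS and ES cells in LIF medium (-0.89). Positive differences also included those of Itgb7 (1.56 ± 0.23, edgeR adjusted p = 6.52e-06), Lama1 (1.27 ± 0.22, edgeR adjusted p = 6.51e-05) and Lamc1 (0.76 ± 0.18, edgeR adjusted p = 0.00163). Itgb7, Lama1 and Lamc1 were lower in iPS than in ES cells in LIF medium, and the log2 gap to ES cells in 2i was 0.13 for Itgb7, -1.64 for Lama1 and -0.70 for Lamc1. The gap in LIF medium enters the difference by construction, so the 2 are not independent. The same holds for the negative differences of Col1a1, Col1a2, Col3a1, Col5a1, Col6a1 and Lamb2. These genes were higher in iPS than in ES cells in LIF medium. The differences of Adamts1 and Fbn2 are lost without the first iPS library in 2i (-0.80, edgeR adjusted p = 0.0686) and without ES replicate 1 (-1.29, edgeR adjusted p = 0.126). Those of Col6a2, Itga4, Lama4, Lama5, Thbs3 and the Adamts9 model are each lost when any 1 of 3 to 5 libraries is left out.

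**Figure D4:**
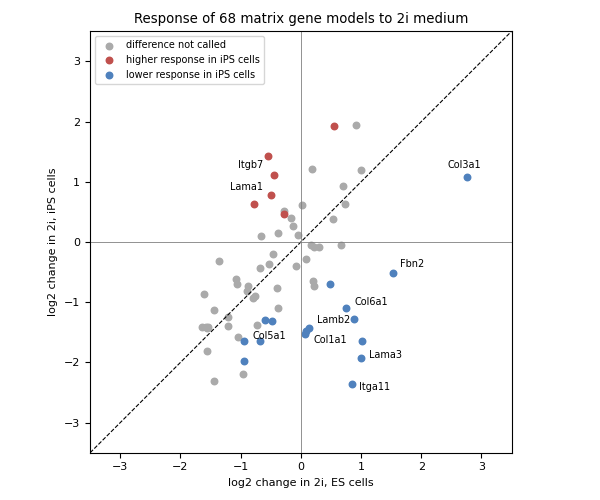
Log2 change in 2i against LIF medium in ES cells (horizontal) and in iPS cells (vertical) for the 68 tested matrix gene models, with equal responses on the dashed line. Colour marks members whose responses differ by edgeR's interaction test, 6 higher (red) and 16 lower (blue) in iPS cells. Col3a1 stands out to the right with 2.76 in ES and 1.07 in iPS cells.

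Other genes of matrix production, from lists that hold no member, were counted in the same fit. The list counts here and below stand beside these shares of all models called higher and lower. They were 27.3% and 33.7% in NPC against ES cells and 25.9% and 26.9% in iPS against ES cells. In 2i they were 11.3% and 13.2% in ES cells and 21.1% and 21.5% in iPS cells. Of 15 tested genes for collagen folding, secretion and processing, 6 were higher and 7 lower in NPC than in ES cells, and 8 were higher and 3 lower in iPS than in ES cells. Pcolce and Pcolce2, enhancers of procollagen cleavage, had log2 changes of -3.40 and -3.43 in NPC. In iPS against ES cells the largest were Leprel4 at 3.12 and the collagen uptake receptor gene Mrc2 at 3.00. In 2i 1 of the 15 was higher and 2 lower in ES cells, and 1 higher and 6 lower in iPS cells.

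Of 7 tested basement membrane genes other than collagens and laminins, 4 were higher and 3 lower in NPC than in ES cells. Nid1, which links laminin to type IV collagen, had a log2 change of -5.66 there and Ntn4, a laminin-related netrin, 4.52. In 2i 6 of the 7 were lower and 1 higher in ES cells, and 5 were lower in iPS cells. Frem2 changed by -3.03 in ES cells and Hspg2, the perlecan gene, by -2.29 in iPS cells.

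The 13 tested regulators in the TGF-beta and YAP list, signals that act on many matrix genes, were lower in NPC than in ES cells in 9 cases and higher in 2. In 2i 7 of the 13 were lower in ES cells and 8 in iPS cells, and none was called higher in either (edgeR). Ltbp1, which anchors latent TGF-beta in the matrix, had a log2 change of 4.13 in iPS against ES cells and -3.56 in 2i in iPS cells. Of 15 tested focal adhesion genes, 4 were higher and 10 lower in NPC than in ES cells, 5 were lower in 2i in ES cells, and 3 were higher and 7 lower in 2i in iPS cells. Fermt1, an integrin activator, changed by -5.14 in NPC and -3.22 in 2i in ES cells.

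Genes of the brain's proteoglycan matrix were counted as well. Of 6 tested, 4 were higher and 2 lower than in ES cells, with log2 changes of 8.26 for Bcan (brevican) and 6.16 for Ncan (neurocan), which is also in the neural progenitor list. Ncan stood at 1699 and 1953 CPM in NPC. Of 8 tested genes for matrix metalloproteinases and their cell-surface inhibitor, 4 were higher and 3 lower in NPC, with Mmp15, a membrane-bound protease, at 7.66 and Mmp3 at -4.11.

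Markers of further cell types also moved with the groups, and their part in the matrix results was not tested. The summed level of 6 trophoblast and simple epithelium genes, mostly keratins, was 356 and 403 CPM in ES cells, 41.7 and 44.3 in ES cells in 2i, 956 and 1157 in iPS cells and 88.6 and 80.3 in iPS cells in 2i, and at most 1.16 in NPC. Among the ES and iPS groups its means had the same order as those of Col4a2, Lama5 and Thbs3. The fibroblast sum had this order too, as did further members such as Timp2 and Thbs2, so it is not particular to the epithelial genes. For Lama5, however, the ES libraries in LIF medium overlapped those of iPS cells in 2i. For 8 endoderm genes, which moved with Lama1 between ES and iPS cells in LIF medium, the sum was 501 and 671 in ES cells, 97.4 and 118 in ES cells in 2i, 149 and 162 in iPS cells and 241 and 234 in iPS cells in 2i. The endoderm sum was lower in 2i in ES cells and higher in 2i in iPS cells. The 4 mesoderm genes summed to at most 20.6 CPM, the 2 endothelial and pericyte genes to at most 9.56 and the 2 astrocyte genes to at most 15.4, and no gene of the microglia and blood list was in the table.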

How the data were processed

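RNA sequencing counts of 10 mouse libraries, 2 in each of 5 groups, were analysed. For each library the authors deposited a count of reads for each of 55419 transcript models. The submitters' processing notes name TopHat, TopHat2 2.1.0, HTSeq and mm9. How overlaps and strand were counted is not given in the sources used here. Ambiguous reads, those over several models, were 6.00% to 35.6%, so models of 1 symbol, overlapping and antisense models are uncertain. The authors also deposited a table of 11767 named models whose values are log2 of count plus 1 with a constant added per library, to an equal upper quartile of 7.43, as found from the values. It gave names, positions (mm9, as deposited) and an alternative test. Since its values were already logarithms, the planned log2(value + 1) was not applied again. A count of 0 stands in it at 2.08 in NPC replicate 1 and at -1.88 in ES replicate 1.

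Counts were fitted with edgeR 4.0.16 in R 4.3.3 (TMM scaling, filter by expression, quasi-likelihood F test, prior count 2), with all 10 libraries, the group as the only term and 5 residual degrees of freedom. The filter kept 11031 models and left out 44388. The 92 spike-in and 5 summary entries stayed out. Adjustment over all models followed Benjamini and Hochberg. Levels are CPM. A fold against a group at 0 uses 3 counts per library as the floor, and ratios against 1 to 3 counts carry a 95% exact interval. Both cover no more than counting error, as amplified reads may be copies of 1 molecule. The fit was tested on simulated counts. Alternatives used DESeq2 1.42.0, limma 3.58.1, other scalings and filters, summed models, fewer libraries and a replicate block.

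The members and gene lists were chosen with earlier results of these data known. The naming rule took in each role the 2 members of highest mean log2 CPM, in each comparison the 5 largest rises and falls among called members with a mean log2 CPM of at least 2, and the 6 members of smallest adjusted p in the difference of the 2i responses. It named 37, of which 1 is not reported here, and 15 more were chosen after their values were seen. No pair of different members lay within 20 kb. No member lay in the 7 regions studied by chromosome conformation capture, which was not used here. Promoter windows came from RefSeq (GRCm38.p6), the 250 bases before each start. Replicates of a group correlated at 0.960 to 0.989 over models and differed by more than counting noise.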

Additional observations from a re-analysis of the deposited data

Results flagged for a closer look

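The response to 2i medium differed between iPS and ES cells for some of the 68 tested matrix gene models, by edgeR's test of the interaction term (adjusted p under 0.05). The response was higher in iPS cells for 6 and lower for 16, beside 15.1% and 12.2% of all models. Members with small adjusted p in this test included Col6a1 (difference of the log2 responses, iPS minus ES, -1.84), Col3a1 (-1.69), Col5a1 (-1.60), Col1a1 (-1.56) and Lamb2 (-1.55). All of these were higher in iPS than in ES cells in LIF medium, a gap that enters the difference by construction. Each group has 2 libraries, and both lines were grown on feeders that were later removed. The medium outside 2i is described with serum for iPS cells and without mention of serum for ES cells, so medium and line cannot be told apart in this difference.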

How the results depend on the processing

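The 14 counts of matrix genes were recomputed 204 times, and 198 stayed within 1.5 times. In ES cells the 8 higher members in 2i were 5 with DESeq2 and 5 with limma on the authors' log2 table, where the 28 lower members were 16. Leaving out 1 library gave 2 to 8 (lowest without ES replicate 1) and 15 to 22 (lowest without replicate 1 of the 2i libraries). The 17 lower members in iPS cells against NPC were 11 to 17, lowest without NPC replicate 2. Of 3175 repeats over 222 single-gene calls, 2929 were kept, 245 lost significance and 1 changed sign: Col4a6 in 2i in ES cells gave -1.54 to 0.16 with 1 library left out. Of the lost calls, 131 repeats, the reversal included, left out a single library. With NPC replicate 1 and ES replicate 2 both left out, the 28 lower members in 2i in ES cells were 20.

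Deviations of same-numbered libraries correlated at -0.080 to 0.072, so no shared deviation was seen. These values cannot tell whether same-numbered libraries were prepared together. The deposited counts of the library labelled iPS replicate 2 are named as replicate 3, so its number is uncertain. The label was followed. With the number as a replicate block, 29 members in place of 28 were lower in 2i in iPS cells, and the other counts were the same. Without TMM scaling the median of all models moved from -0.03 to -0.18 in iPS against ES cells, from 0.03 to 0.16 in 2i in iPS cells and from 0.01 to 0.11 in the difference of the responses, and the members' medians kept their sign. The members' median difference of the responses was small, however. It went from -0.13 to -0.02 without TMM scaling and was 0.01 without ES replicate 2, so its sign is not stable. The depth of NPC replicate 1 limits the lowest levels: 3 counts there are 2.51 CPM.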
